A study of Mus musculus with 16 samples.

Results

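The genes described here are 9 protein-coding genes that mark noradrenergic sympathetic neurons, namely Th, Ddc, Dbh, Slc6a2, Slc18a2, Phox2a, Hand2, Gata3 and Npy. They were matched by symbol, and all 9 were found among the 56941 genes of the nerve count table. That table holds 10 libraries of bulk RNA-seq from mouse superior cervical ganglion (SCG) explants, out of 16 libraries in the series. The other 6 libraries came from mPSC1 cells, an immortalized line of mouse pancreatic stellate cells (PSCs). Explants grew by themselves in 3 libraries (SCG), beside control mouse embryonic fibroblasts of the NIH 3T3 line in 3 (SCG+MEF) and beside mPSC1 cells in 4 (SCG+PSC). All explants came from wild-type C57BL/6J pups at postnatal days 1 to 4, were loosened with collagenase, washed in medium with nerve growth factor, broken up by pipetting and plated on poly-D-lysine and laminin. Each well held 8 to 13 explants, which in the cocultures shared medium for about 70 hours with 10000 cells on an insert and had no contact with them. Each of NIH 3T3 and mPSC1 is a single line, and SCG neurons supply the head and neck rather than the pancreas, which limits what the cultures model. The sources used here do not say which pups were pooled in a library, so p-values measure the spread between these libraries.

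Sympathetic neurons make noradrenaline from tyrosine in steps. Th (tyrosine hydroxylase) is the rate-limiting enzyme and makes L-DOPA, Ddc (aromatic L-amino acid decarboxylase) turns this into dopamine, and Dbh (dopamine β-hydroxylase) turns dopamine into noradrenaline inside vesicles. Slc18a2 (VMAT2) loads the vesicles, and Slc6a2 (NET) takes released noradrenaline back into the terminal. Phox2a, Hand2 and Gata3 are transcription factors of the sympathetic lineage, and Npy encodes neuropeptide Y, a peptide released together with noradrenaline.

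Promoter sequences are shown for Th, Dbh and Slc18a2, which were picked because these 3 windows hold short motifs of interest at catecholamine genes. Any link between these motifs and the members' levels was not tested. RefSeq promoter windows of 300 bases (GRCm38.p6, 250 bases before and 50 after the start of transcription) were at hand for 8 of the 9 genes, with 2 windows for Ddc and none for Slc6a2. The windows below run 5′ to 3′ on the gene's strand and were placed on GRCm39 by exact match, each with 1 match in the genome. Th lies at chr7:142453733-142453982 (minus strand), Dbh at chr2:27055269-27055518 (plus strand) and Slc18a2 at chr19:59249064-59249313 (plus strand). The Th and Dbh windows end at the base before RefSeq's start, and the Slc18a2 window runs 4 bases past it. RefSeq's starts of all 3 lie inside the bounds that GENCODE gives these genes. GENCODE's canonical transcripts start earlier, at chr2:27055245 for Dbh, chr19:59249238 for Slc18a2 and chr7:142453751 for Th. By these starts the whole Dbh window lies after the start of transcription. The same holds for the end of the Slc18a2 window, with its TGACGTCA, and for the last few bases of the Th window. Capitals mark the cAMP response element TGACGTCA, which is the same on both strands, and the homeodomain core ATTA on either strand (TAAT where it lies on the other strand).
Th: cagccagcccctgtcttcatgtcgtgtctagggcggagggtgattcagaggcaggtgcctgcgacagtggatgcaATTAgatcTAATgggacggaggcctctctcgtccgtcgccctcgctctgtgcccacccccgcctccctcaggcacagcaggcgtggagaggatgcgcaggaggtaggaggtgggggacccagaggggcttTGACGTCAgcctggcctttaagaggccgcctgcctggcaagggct
Dbh: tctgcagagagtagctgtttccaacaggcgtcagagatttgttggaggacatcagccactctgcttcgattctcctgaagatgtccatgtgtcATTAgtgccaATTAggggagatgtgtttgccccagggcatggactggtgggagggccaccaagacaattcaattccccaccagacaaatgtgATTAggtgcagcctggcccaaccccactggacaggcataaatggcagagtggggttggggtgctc
Slc18a2: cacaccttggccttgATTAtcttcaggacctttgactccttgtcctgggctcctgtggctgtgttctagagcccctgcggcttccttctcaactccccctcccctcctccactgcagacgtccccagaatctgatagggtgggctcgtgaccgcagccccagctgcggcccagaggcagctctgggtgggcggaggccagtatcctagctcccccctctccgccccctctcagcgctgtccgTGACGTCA

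TGACGTCA began 45 bases before RefSeq's start in Th and 4 bases before it in Slc18a2, and was in the windows of these 2 of the 8 members. Of all 32851 promoter windows, 1.79% held it. The shorter TGACG, which is part of that element, was in 4 of the 8 members (Th, Slc18a2, Dbh and Hand2) and in 20.8% of all windows. ATTA was in 5 of the 8 (Th, Ddc, Dbh, Slc18a2 and Hand2) and in 58.0% of all windows. Dbh held ATTA 3 times, at 157, 147 and 65 bases before RefSeq's start. The E-box CAGATG was in Hand2 (17.2% of all windows), the GATA motif AGATAA was in Hand2 and Slc18a2 (11.2%), and the TATA-type motif TATAAA was in 1 of the 2 Ddc windows (13.6%). Each of these motifs was sought on both strands. A match describes letters and not binding.

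As for the labelled cell type, all 9 members and all 12 pan-neuronal genes examined were detected in each of the 10 libraries. Genes of satellite glia and Schwann cells (10), macrophages (8), fibroblasts (7), endothelial cells (6) and dividing cells (7) were likewise above 0 in every library, so transcripts of other cells were present beside those of neurons. In such bulk RNA, fewer neurons and less of a transcript per neuron cannot be told apart. Depth was even, with 32013901 to 39197230 reads on genes in the 9 nerve libraries for which whole reads could be recovered. All levels below are normalized counts, that is, reads divided by the library's size factor.

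Among the enzymes, Dbh (ENSMUSG00000000889, chr2:27055245-27074212) had 37233, 21398 and 45933 in SCG replicates 1 to 3. It had 38785, 32369 and 42962 in SCG+MEF replicates 1 to 3 and 39456, 26159, 44139 and 39011 in SCG+PSC replicates 1 to 4. The group means were 34855 ± 12439 (SD, n = 3), 38039 ± 5336 (SD, n = 3) and 37191 ± 7712 (SD, n = 4). The groups overlapped, and the replicate numbered 2 was the lowest in each of them.

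Th (ENSMUSG00000000214, chr7:142443466-142484865) had 18795, 8836 and 29967 in the SCG libraries, replicates 1 to 3. The SCG+MEF libraries had 27217, 19167 and 31729, and the SCG+PSC libraries had 19939, 12955, 26430 and 24665. The means were 19199 ± 10571 (SD, n = 3) in SCG, 26038 ± 6363 (SD, n = 3) in SCG+MEF and 20997 ± 6021 (SD, n = 4) in SCG+PSC. The 3 conditions overlapped, and the lowest SCG+MEF library was above the lowest library of either other condition.

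Ddc (ENSMUSG00000020182, chr11:11762602-11848150) had 4007, 2104 and 6528 in SCG, replicates 1 to 3. It had 5088, 3426 and 6561 in SCG+MEF and 3493, 2155, 5390.4 and 5441 in SCG+PSC. Its highest SCG+PSC library was below the highest library of SCG and of SCG+MEF, with overlap among all 3 conditions.

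Of the transporters, Slc6a2 (ENSMUSG00000055368, chr8:93686707-93728295) had 24752, 16385 and 49599 in SCG. It had 30724, 24354 and 50206 in SCG+MEF, and its 4 SCG+PSC libraries lay between 20265 and 39390. Replicate 3 of SCG and of SCG+MEF stood above all other libraries. Slc18a2 (ENSMUSG00000025094, chr19:59249238-59284695) was about an order of magnitude lower in normalized counts, with means of 2253 ± 951 (SD, n = 3), 2660.0 ± 1059 (SD, n = 3) and 2542 ± 655 (SD, n = 4) in SCG, SCG+MEF and SCG+PSC.

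Of the transcription factors, Hand2 (ENSMUSG00000038193, chr8:57774011-57777677) had means of 5033 ± 1254 (SD, n = 3) in SCG, 5251 ± 823 (SD, n = 3) in SCG+MEF and 5251 ± 858 (SD, n = 4) in SCG+PSC, and its highest library was 1.66 times its lowest, the smallest range among the 9. Phox2a (ENSMUSG00000007946, chr7:101467514-101471933) had 4528 ± 1774 (SD, n = 3), 4504 ± 776 (SD, n = 3) and 4324 ± 1108 (SD, n = 4). Gata3 (ENSMUSG00000015619, chr2:9861889-9894845) had 1109, 677 and 1769 in SCG, 1359, 968 and 1389 in SCG+MEF, and between 725 and 1253 in the 4 SCG+PSC libraries. Every condition overlapped with the others for these 3 genes.

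Npy (ENSMUSG00000029819, chr6:49799026-49806489) had means of 673 ± 352 (SD, n = 3) in SCG, 819 ± 312 (SD, n = 3) in SCG+MEF and 785 ± 250 (SD, n = 4) in SCG+PSC. Its range across the 10 libraries, from 319.6 to 1169.7, was the widest of the 9, with a highest library 3.66 times the lowest. Positions are those of GENCODE M39 on GRCm39. On their own strand only Gata3 overlaps another gene there (Gata3un, over 1.69% of its exon bases), and reads were counted by strand.

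**Figure D1:**
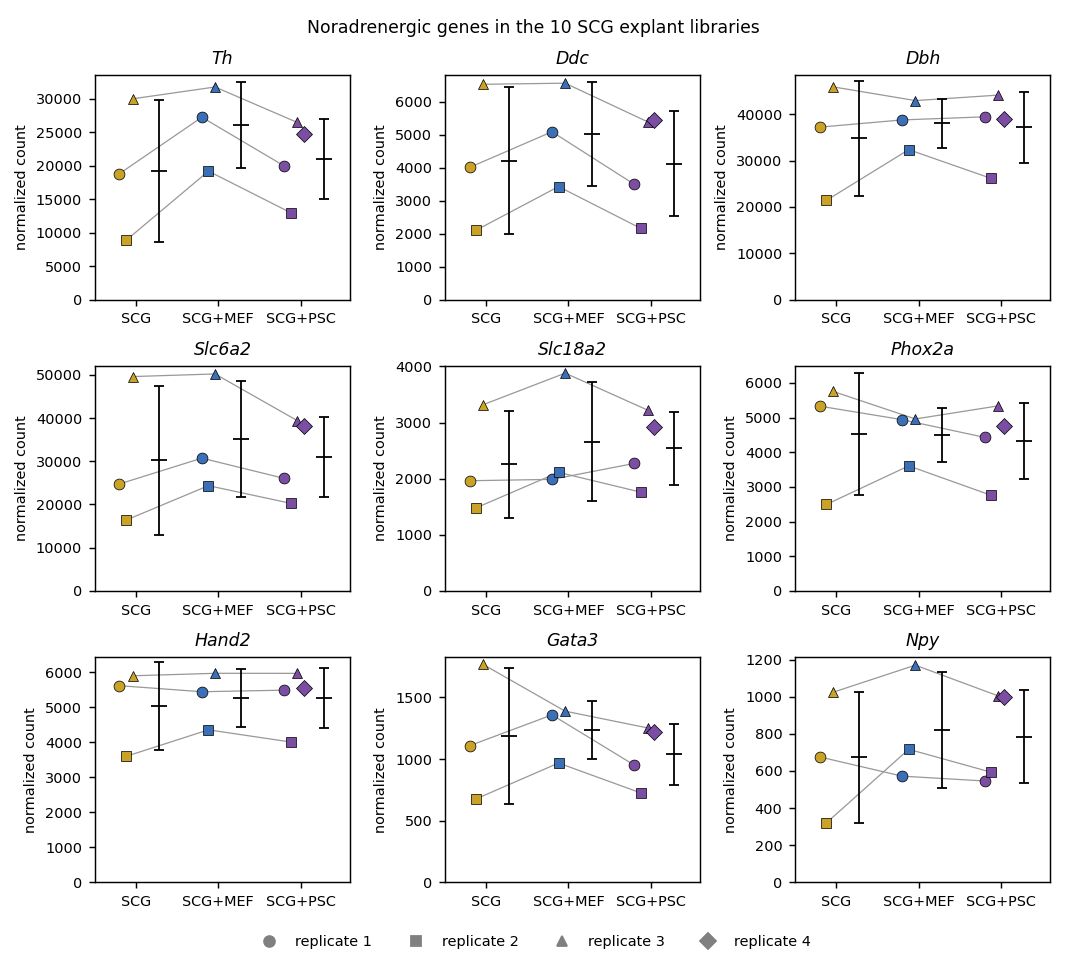
Normalized counts (y axis, from 0) of each of the 9 genes in the SCG, SCG+MEF and SCG+PSC libraries (x axis). Each symbol is 1 library with its shape giving the replicate number, grey lines join libraries of the same number, and black bars are the mean ± SD. The lines for numbers 1, 2 and 3 stay apart for most genes while the conditions overlap for all 9.

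Per kilobase of the canonical transcript, and averaged over the 10 libraries, the level ran from Dbh (12219.7 normalized counts per kb) through Slc6a2 (4908), Th (4537), Phox2a (2749), Hand2 (2191), Npy (1346), Ddc (1254) and Slc18a2 (604) to Gata3 (351). By this measure Dbh ranked 100th and Gata3 ranked 6163rd of 15981 protein-coding genes with a length. Neighbours in the order kept their places in 10 of 10 libraries, except that Slc6a2 was above Th in 6 of 10 and Npy above Ddc in 6 of 10. These pairs therefore do not differ beyond the spread between libraries. The place of Th rests on a canonical transcript of 4842 bases, and the annotation also holds shorter Th transcripts, for which the level per kb would be higher.

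The 9 genes varied together from library to library. SCG replicate 2 was the lowest of the 10 libraries for all 9 genes, and the highest was SCG+MEF replicate 3 for 6 of them (Th, Ddc, Slc6a2, Slc18a2, Hand2 and Npy) and SCG replicate 3 for the other 3. Among the libraries numbered 1 to 3, replicate 3 was the highest in all 3 conditions for 9 of 9 genes, against 18.7% of the 12849 protein-coding genes with a mean of at least 50. Replicate 2 was the lowest in all 3 conditions for 7 of 9 genes (20.5% of those 12849), the exceptions being Slc18a2 and Npy. Over the 36 pairs of members, Pearson's r of log2(normalized count + 1) across the 10 libraries ranged from 0.73 to 0.97 with a median of 0.91. This is a description, since the points share condition, replicate number and cell makeup.

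In the 9 libraries numbered 1 to 3, where conditions and numbers are balanced, the sum of squares on the log2 scale can be split between them. For the median member the replicate number held 83.1% (range 69.2% to 93.6%) and the culture condition 6.83% (range 1.68% to 18.4%). For the median of the 12849 protein-coding genes these shares were 60.8% and 13.8%. Th had the largest share for the condition (18.4%) and Hand2 the smallest (1.68%).

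**Figure D2:**
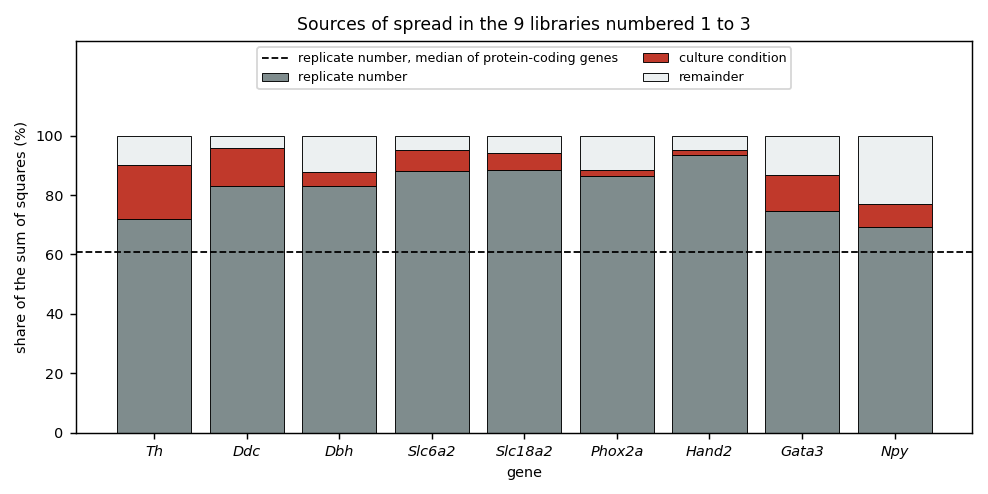
Share of the sum of squares of log2(normalized count + 1) in the 9 libraries numbered 1 to 3 (y axis, %) for each gene (x axis), split into replicate number, culture condition and remainder. The replicate number holds 69.2% to 93.6% in the 9 genes, above the dashed line at 60.8%, the median of protein-coding genes.

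The 12 pan-neuronal genes were likewise low in the libraries numbered 2, but followed the members less closely in SCG+MEF replicate 3. The summed normalized counts of the 9 members ran from 57289.7 (SCG replicate 2) to 149787 (SCG replicate 3), a 2.61-fold range. The sum of the 12 pan-neuronal genes ran from 166555 to 292492, a 1.76-fold range, and was also lowest in replicate 2 of each condition. Within SCG+MEF it was higher in replicate 1 (281733) than in replicate 3 (268480), whereas the members' sum was higher in replicate 3 (148823) than in replicate 1 (116110). On the mean log2 scale, the members lay 0.85 below their 10-library mean in SCG replicate 2, 0.18 below in SCG+MEF replicate 2 and 0.55 below in SCG+PSC replicate 2. The pan-neuronal genes lay 0.57, 0.19 and 0.47 below in the same libraries. In these 3 libraries the summed dividing-cell genes were the highest of their conditions, at 18814 in SCG, 20377 in SCG+MEF and 27454 in SCG+PSC, and so were the summed fibroblast genes, at 390833, 405357 and 390570.0. On the mean log2 scale the fibroblast genes lay 0.034, 0.31 and 0.0011 above their 10-library mean in these libraries. The last of these was the lowest of the SCG+PSC libraries, so the fibroblast sums and means differ there. The part of either in the members' levels was not tested.

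**Figure D3:**
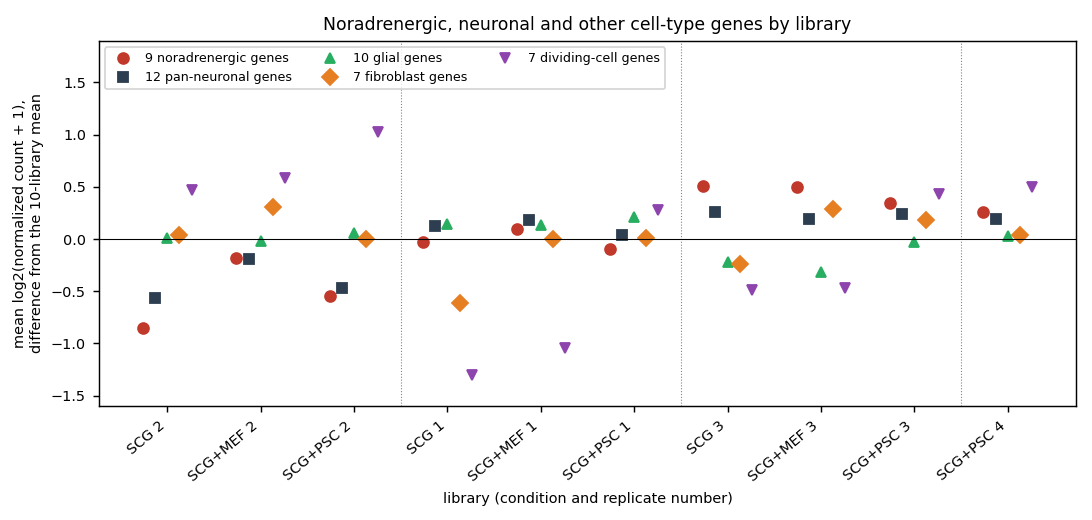
Mean log2(normalized count + 1) of each gene list minus its mean over the 10 libraries (y axis) in each library (x axis), with libraries of the same replicate number side by side between the dotted lines. In the 3 libraries numbered 2 the 9 noradrenergic genes and the 12 pan-neuronal genes lie below 0, while the 7 dividing-cell genes lie above 0.

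The comparison of SCG+MEF with SCG asks what control fibroblasts do to the neurons' genes. All 9 log2 fold changes were above 0, from 0.07 (Phox2a) to 0.58 (Th), with a median of 0.25 beside 0.02 over all 23779 genes tested. None of the 9 passed the test (limma, adjusted p no higher than 0.05 with a log2 fold change beyond 0.5 either way, which 0.0126% of all genes passed), and none had an unadjusted p under 0.05 (3.37% of all genes). The 95% intervals reached from -0.61 to 1.44, so differences of this size were not detectable with this spread. In this fit without a block, the direction rested on SCG replicate 2. With it left out and SCG+MEF replicate 2 kept, 8 of the 9 log2 fold changes were below 0. The median was then -0.09, with Th at 0.10.

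Since same-numbered libraries deviated together, the fit was repeated with the replicate number as a block. SCG+PSC replicate 4, whose number no other condition has, then adds nothing to the differences between conditions. The estimates for SCG+MEF against SCG stayed as they were, and the standard errors dropped from between 0.21 and 0.43 to between 0.08 and 0.21. Still none of the 9 was past the threshold (0.160% of all genes were). Unadjusted p was under 0.05 for 4 members (7.50% of all genes), which were Th, Ddc, Slc6a2 and Slc18a2, with limma adjusted p of 0.228, 0.399, 0.521 and 0.600. These 4 were higher in SCG+MEF in 3 of 3 same-numbered pairs, and no member was lower in 3 of 3 (all genes, 15.0% and 12.2%). For Th the pair differences were 0.53, 1.12 and 0.08 on the log2 scale, a blocked log2 fold change of 0.58 (standard error 0.14, 1.49-fold). For Ddc they were 0.34, 0.70 and 0.01, a blocked log2 fold change of 0.35 (standard error 0.11).

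On recovered reads of the 9 libraries numbered 1 to 3, DESeq2 with the block, the closest in form to the study's own model, called Th higher in SCG+MEF. DESeq2 gave Th 0.57 on the log2 scale (standard error 0.14) and an adjusted p of 0.00632, where 0.674% of genes were called. Over the 19 alternative settings tried, leaving out single libraries aside, the adjusted p of Th in this comparison ran from 0.00632 to 1.0. The other 8 members were not called by DESeq2 with the block, edgeR with the block called none of the 9 (0.152% of all genes), and without the block edgeR (0.0127%) and DESeq2 (0.118%) called none.

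For SCG+PSC against SCG, which asks what pancreatic stellate cells do to the neurons' genes, the members' differences were small beside the spread. The log2 fold changes ran from -0.12 (Gata3) to 0.32 (Npy), 7 of 9 above 0, with a median of 0.13 beside 0.00014 over all genes. None was called (0.0336% of all genes were), and none had an unadjusted p under 0.05 (5.05% of all genes). Single SCG libraries were also left out, without a block and with the same-numbered SCG+PSC library kept. Without SCG replicate 2 all 9 were below 0, with a median of -0.23, and without SCG replicate 3 all 9 were above 0, with a median of 0.41. With the replicate block 6 of 9 were above 0 and the median was 0.05. The 95% intervals then reached at most from -0.50 (Gata3) to 0.63 (Npy), and the narrowest was that of Hand2, at -0.12 to 0.21. With the block none was called (1.31% of all genes) and none had an unadjusted p under 0.05 (10.6%). No member was higher, and none lower, in all 3 same-numbered pairs, against 17.4% and 14.6% of all genes. edgeR and DESeq2 called none of the 9, with the block (1.38% and 2.58% of genes) or without it (0.0127% and 0.293%).

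SCG+PSC against SCG+MEF compares the stellate cells with the control fibroblasts and uses the same SCG+MEF and SCG+PSC libraries as the comparisons above. All 9 members had log2 fold changes below 0, from -0.33 (Ddc) to -0.0037 (Hand2), with a median of -0.09 beside -0.01 over all genes. None was called by limma, which called no gene at all here (0%), and none had an unadjusted p under 0.05 (4.08% of all genes). Without SCG+PSC replicate 2, 6 of 9 were above 0 with a median of 0.06, and without SCG+MEF replicate 3, 5 of 9 were above 0 with a median of 0.04. These fits had no block either, and kept the same-numbered library of the other condition.

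With the replicate block the median was -0.19, and 4 members had an unadjusted p under 0.05 (11.7% of all genes), namely Ddc, Th, Gata3 and Slc6a2. None passed the threshold in limma (0.786% of all genes did). Ddc came closest, with pair differences of -0.54, -0.67 and -0.28, a log2 fold change of -0.50 (95% interval -0.73 to -0.27, 0.71-fold) and a limma adjusted p of 0.0538. It was called lower in SCG+PSC by edgeR with the block (log2 fold change -0.50, adjusted p 0.0421, 0.895% of genes called) and by DESeq2 with the block (log2 fold change -0.50, adjusted p 0.00106, 2.34% of genes called). Its adjusted p over the 19 settings ran from 0.00106 to 1.0, and without SCG+PSC replicate 2 its unblocked log2 fold change was -0.053. Th had pair differences of -0.45, -0.57 and -0.26, a log2 fold change of -0.43 (95% interval -0.74 to -0.11) and a limma adjusted p of 0.247. DESeq2 with the block gave Th -0.44 and an adjusted p of 0.0431 (0.0431 to 1.0 over the 19 settings), which is under the size of 0.5 asked for. Dbh had a blocked log2 fold change of -0.08 (95% interval -0.33 to 0.16). In all, 5 members (Th, Ddc, Slc6a2, Gata3 and Npy) were lower in SCG+PSC in 3 of 3 pairs (17.2% of all genes) and none was higher in 3 of 3 (15.5%). No member other than Ddc was called by edgeR or DESeq2 with the block, and without it edgeR (0%) and DESeq2 (0.113%) called none of the 9. In no comparison were 2 conditions free of overlap for any member, but the share of all genes free of overlap was not determined.

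These blocked values depend on how SCG+PSC replicates 3 and 4 were paired. With SCG+PSC replicate 3 in a block of its own, unadjusted p was under 0.05 for 2 members in SCG+PSC against SCG+MEF (9.28% of all genes), namely Ddc (log2 fold change -0.52, limma adjusted p 0.0969) and Th (-0.38, limma adjusted p 0.503), while Slc6a2 moved to -0.18 and Gata3 to -0.34. With SCG+PSC replicate 4 set in block 3 in its place, an alternative chosen after seeing the data, it was under 0.05 for Ddc, Th, Gata3 and Slc6a2 (11.8% of all genes), with Ddc at -0.49 (limma adjusted p 0.0694). None of the 9 was called in either fit (0.610% and 0.601% of all genes). In SCG+MEF against SCG the 2 fits called none (0.324% and 0.151% of all genes), and unadjusted p was under 0.05 for 4 members in the first (9.35% of all genes) and for 3, without Slc18a2, in the second (7.84%). In SCG+PSC against SCG they called none (1.30% and 1.25% of all genes), and no member had an unadjusted p under 0.05 (9.50% and 11.0%).

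**Figure D4:**
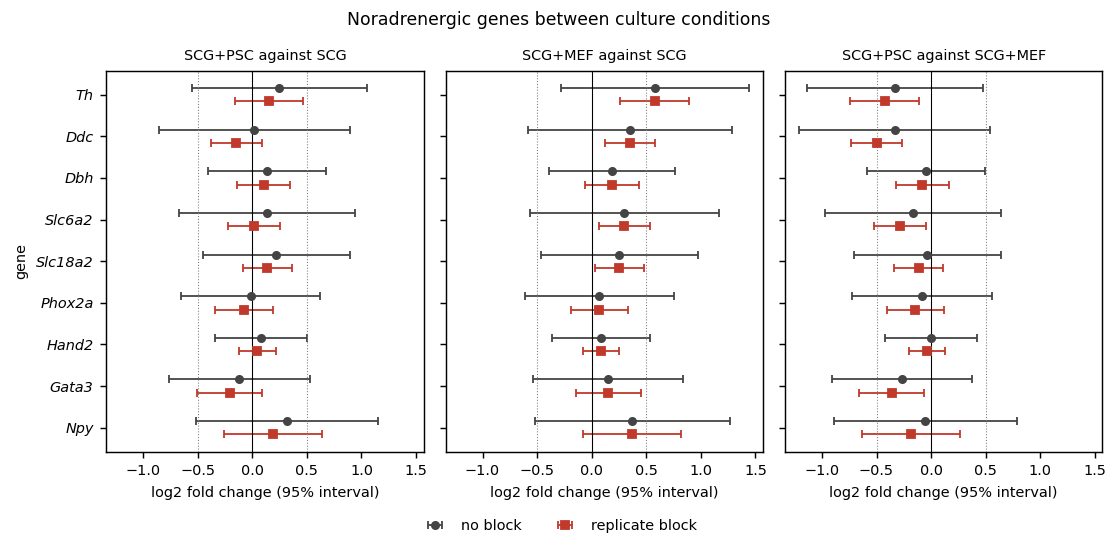
Log2 fold changes (x axis, bars are 95% intervals) of the 9 genes (y axis) in each of the 3 comparisons of nerve libraries, from limma without a block (grey circles) and with the replicate number as a block (red squares). Dotted lines mark log2 fold changes of -0.5 and 0.5. Every grey interval holds 0, and red intervals leave out 0 for 4 genes where SCG+MEF is set against SCG and for 4 where the cocultures are compared with each other.

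The members were also set against other neuronal genes. After each library was centred on the 12 pan-neuronal genes, which moved the median of all genes to -0.06, -0.11 and 0.05 in the 3 comparisons, the members' medians were 0.07 for PSC coculture over SCG, 0.13 for MEF coculture over SCG and -0.02 for PSC over MEF coculture. None of the 9 was called, where 4, 2 and 0 of all 23779 genes were called in the 3 comparisons in this order. Phox2a and Hand2 then lay below 0 in SCG+MEF against SCG, while Dbh, Slc18a2, Hand2 and Npy lay above 0 in SCG+PSC against SCG+MEF. In an alternative chosen after seeing the data, the centring was joined with the replicate block, and Ddc in SCG+PSC against SCG+MEF had a log2 fold change of -0.37 (limma, adjusted p = 0.184) and Th -0.30 (limma, adjusted p = 0.470).

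Genes that work beside the members were examined as lists, and none of their genes was called by limma in any of the 3 nerve comparisons, with the replicate block or without it. The tetrahydrobiopterin list (6 genes) holds enzymes of the cofactor that Th needs, and its median log2 fold changes, in the order used for every list here, were 0.00043 for PSC coculture over SCG, 0.02 for MEF coculture over SCG and 0.05 for PSC over MEF coculture. Gch1, the rate-limiting enzyme of that cofactor, had 1442, 811 and 2330.0 in SCG, 1350.5, 1103 and 2501 in SCG+MEF and 1252, 809, 1832 and 1579 in SCG+PSC. Like Th, it was lowest in the libraries numbered 2 and overlapped between conditions. Qdpr, which recycles the cofactor, lay between 2484 and 3732 in the 10 libraries. Maoa, a monoamine oxidase that breaks down catecholamines, lay between 8605 and 21474.

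The dense-core vesicle list (10 genes) had medians of -0.01, 0.07 and -0.11. Cpe, a peptide-processing enzyme, had 43738, 35565 and 41495 in SCG+MEF and between 28182 and 33516 in the 4 SCG+PSC libraries. Every other gene of this list overlapped between these conditions, and the share of all genes that separate as Cpe did was not determined. The log2 fold change of Cpe in SCG+PSC against SCG+MEF was -0.40 (limma, adjusted p = 1.0) and, with the replicate block, -0.41 (limma, adjusted p = 0.0358), which is under the size of 0.5 asked for. Pam, which amidates peptides, lay between 11927 and 14792. The autoreceptor list (3 genes), α2 receptors through which noradrenaline dampens its own release, had medians of -0.10, 0.14 and -0.24. Adra2a, the most abundant of them, lay between 1075 and 2601, and Adra2c between 57.1 and 299.

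The list of other sympathetic transcription factors (10 genes) had medians of 0.09, 0.13 and 0.10, and its most abundant genes, Zeb2 and Sox4, lay between 11309.6 and 14406 and between 8811 and 12261. Gata2, a relative of Gata3 named after its values were seen, had 6622, 3267 and 11390.5 in SCG, 7615, 4481 and 9695 in SCG+MEF and 5328, 3296, 5488 and 5126 in SCG+PSC. Its log2 fold change in SCG+PSC against SCG+MEF was -0.55 (limma, adjusted p = 1.0) and, with the replicate block, -0.59 (limma, adjusted p = 0.0953). The cholinergic list (3 genes) had medians of -0.46, -0.27 and 0.10. Slc5a7, the choline transporter, lay between 736 and 1305 and Slc18a3, the vesicular acetylcholine transporter, between 269 and 706. Chat, the enzyme that makes acetylcholine, was named after its values were seen. It had 43.5, 20.9 and 31.8 in SCG, 18.2, 3.5 and 5.07 in SCG+MEF and 15.3 to 16.2 in the 4 SCG+PSC libraries. These counts are low, and the lowest SCG library (20.9) was only a little above the highest of the others (18.2). The share of all genes that separate in this way was not determined, and Slc5a7 and Slc18a3 overlapped between all 3 conditions. Chat alone was named for its values. This gene was not called, with a log2 fold change in SCG+MEF against SCG of -1.98 (limma with the replicate block, adjusted p = 0.169). In the list of adrenaline, dopamine and other monoamine genes (7 genes), with medians of 0.31, 0.53 and 0.35, Slc6a4 (the serotonin transporter) lay between 289.9 and 1684, and Slc18a1 (VMAT1) between 56.4 and 166. Slc6a4 was lowest in SCG replicate 3 and SCG+MEF replicate 3, the libraries in which the members were highest. SCG+PSC replicate 3, where the members' sum was the highest of its condition, did not share this. Its Slc6a4 was above those 2 libraries by 1.98 and 2.03 on the log2 scale.

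**Figure D5:**
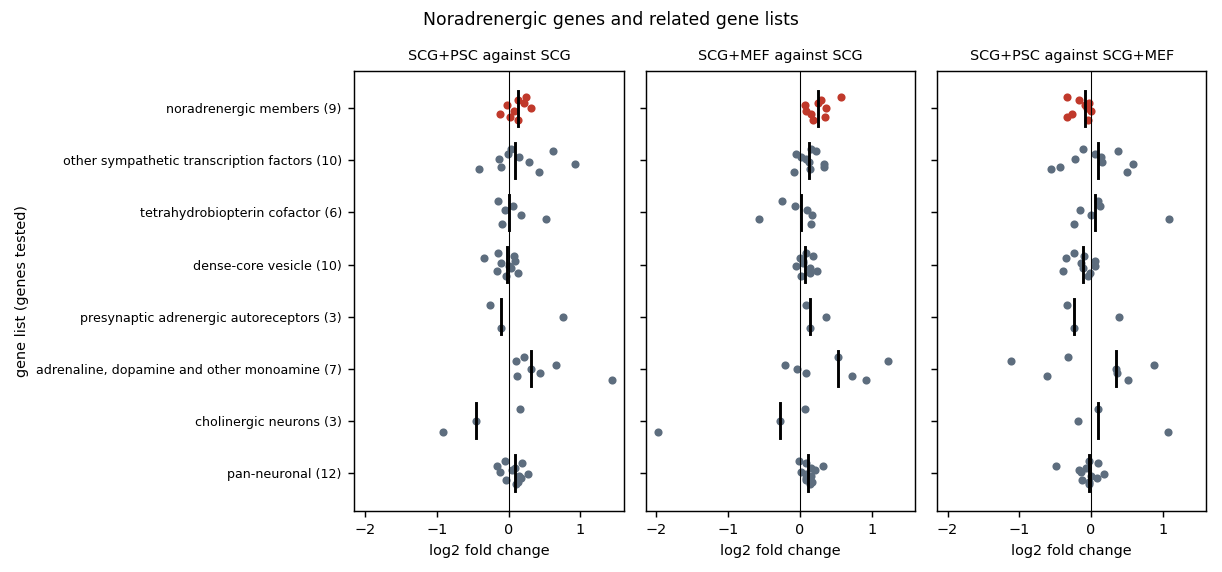
Log2 fold changes without a block (x axis) of the genes in each list (y axis, number of genes tested in brackets) in the 3 comparisons of nerve libraries. Each point is 1 gene, red for the 9 noradrenergic genes, and black bars are medians. The members' medians are 0.13, 0.25 and -0.09, and those of the 12 pan-neuronal genes 0.10, 0.12 and -0.04.

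Markers of other cells differed between conditions beside the members. The summed dividing-cell genes were 5713 to 18814 in SCG, 6774 to 20377 in SCG+MEF and 16224 to 27454 in SCG+PSC. With the replicate block 6 of the 7 were called higher in SCG+PSC than in SCG (1.31% of all genes called either way), and 6 of 7 higher than in SCG+MEF (0.786%). The summed fibroblast genes were 208256 to 390833 in SCG, 286399 to 405357 in SCG+MEF and 281765 to 390570.0 in SCG+PSC. With the block 2 of 7 (Lum and Dcn) were called higher in SCG+MEF than in SCG (0.160% of all genes called either way). In SCG+PSC, 1 (Lum) was called higher than in SCG (1.31%) and lower than in SCG+MEF (0.786%). Of the 10 glial genes, 1 (Fabp7) was called lower in SCG+MEF than in SCG (0.160%) and higher in SCG+PSC than in SCG+MEF (0.786%) with the block. Without the block no dividing-cell, fibroblast or glial gene of these lists was called in any of these comparisons. The summed endothelial genes were 2037 to 2197 in SCG, 2174 to 2577.8 in SCG+MEF and 2579.9 to 3407 in SCG+PSC. The SCG+PSC sums lay above those of SCG, but the lowest barely differed from the highest SCG+MEF sum. Taken singly, each of the 6 genes overlapped between SCG+PSC and SCG+MEF. In SCG+PSC against SCG, 4 of the 6 were higher in 3 of 3 pairs (17.4% of all genes), and the list's median log2 fold change was 0.86. How often other gene lists separate in this way was not determined. None of the 8 macrophage, 6 endothelial or 12 pan-neuronal genes was called in these comparisons, with or without the block. The part of these cells in the members' differences was not tested.

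The genes whose profile over the 10 libraries was most like that of the members, among 12839 other protein-coding genes with a mean of at least 50, were Snap91 (Pearson's r = 0.998 to the members' mean standardized profile), Vat1l (0.993), Nipsnap1 (0.992), Slc25a12 (0.991), Camta1 (0.991), Rab6b (0.989), Sv2a (0.989) and Reep1 (0.989). None of these is in the lists above. Taken singly, the closest gene was Adcyap1r1 for Th (r = 0.987), Nipsnap1 for Ddc (0.992), Fbxo21 for Dbh (0.994), Dpysl2 for Slc6a2 (0.990) and Bhlhb9 for Slc18a2 (0.987). For the others it was Dpp6 for Phox2a (0.996), Slc4a8 for Hand2 (0.992), Tub for Gata3 (0.988) and Tmem150c for Npy (0.973). These values describe 10 libraries with few independent sources of spread.

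The mPSC1 libraries, which were normalized apart from the nerve libraries, were mPSC1 cells grown alone (PSC, n = 3) or with SCG explants (PSC+SCG, n = 3). Hand2 had 778, 669 and 806 in PSC and 554, 657 and 996 in PSC+SCG, and Gata3 had 337 to 411 in PSC and 351 to 420.2 in PSC+SCG. Ddc was at 12.5 to 20.2 over the 6 libraries, with overlap. Th was at 0 in 5 of the 6 libraries and at 3.85 in 1 PSC library, Slc18a2 was at 0 in all 6, and Phox2a and Npy were above 0 in 1 PSC+SCG library each, at 0.99 and 1.98. Dbh and Slc6a2 stayed at or under 7.61. Hand2 and Gata3 were thus the only members over 20.2 normalized counts, the highest level of Ddc, in this line. Of the 9 genes, 5 (Ddc, Dbh, Slc6a2, Hand2 and Gata3) passed the filter on low values, and none of them was called in PSC+SCG against PSC by limma, without a block (0% of all genes) or with one (0.461%), and none had an unadjusted p under 0.05 in either fit (1.92% and 8.37% of all genes). Without the block, Gata3 had a log2 fold change of 0.11 (95% interval -0.27 to 0.48) and Hand2 had -0.07 (95% interval -0.57 to 0.43).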

How the data were processed

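Bulk RNA-seq (stranded mRNA libraries) was measured in 16 mouse libraries, grouped by their labels. According to the methods and the submitters' processing notes, the authors aligned reads with STAR 2.7.10b to GRCm39 with GENCODE M33, counted reads per gene by strand, and divided them by DESeq2 1.38.3 size factors (R 4.2.2), with nerve and PSC libraries normalized apart. The deposited values are these normalized counts, a depth-scaled signal per gene. All value columns were assigned to samples (0 were not). In 14 of the 16 libraries the whole reads could be recovered from the steps in the values (tolerance 0.1 read, 100.0% of values whole), with 32013901 to 39197230 reads in the 9 nerve libraries.

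Log2(normalized count + 1) was tested across 23779 nerve genes with a sum of at least 10 in the 10 libraries, with limma 3.58.1 (R 4.3.3, eBayes with trend, two-sided) and Benjamini-Hochberg adjustment over all of them. A fold change is on this log2 scale, which understates changes of low genes. Genes were called where the adjusted p did not exceed 0.05 and the log2 fold change was 0.5 or more in either direction. Recovered reads of the 9 libraries numbered 1 to 3 were tested with edgeR 4.0.16 (quasi-likelihood) and DESeq2 1.42.0, since those of SCG+PSC replicate 4 were not recovered. The replicate numbers come from the labels. Deviations from group means correlated at 0.33 to 0.78 in the 9 same-numbered pairs and at -0.59 to 0.43 in the 24 others (12849 genes), so the numbers were taken to pair the libraries and blocked fits are given. SCG+PSC replicate 4 correlated with SCG replicate 3 and SCG+MEF replicate 3 at 0.33 and 0.43, and SCG+PSC replicate 3 did so at 0.41 and 0.33. Blocked fits were therefore also made with SCG+PSC replicate 3 in a block of its own, and with replicate 4 in block 3 in its place (chosen after seeing the data). The study's batch dates are not tied to libraries in the labels. No library was left out. The scripts were tested on simulated data.

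The 9 genes and the lists were chosen with earlier results of these data known. Named genes were the 9 members, list genes called in a nerve comparison, the 2 most abundant genes of each related list (1 list is not reported here as a whole), and the genes with the most similar profiles.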

Additional observations from a re-analysis of the deposited data

Results flagged for a closer look

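Of 37 values looked at in the 4 SCG+PSC libraries, 2 had a lowest library that stood apart, where chance alone flags about 1 in 20. For Sox4 the gap from replicate 2 (8975) to the nearest of the others (10961 to 11162) was 0.908 of the group's range. For the summed level of the other sympathetic transcription factors, of which Sox4 is one, the gap above replicate 2 (39096) was 0.894 of the range. Both values come from the same library, in which the 9 noradrenergic genes together were also the lowest of their condition.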

How the results depend on the processing

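None of the 9 members was called in a nerve comparison under limma with any of the settings tried, nor when any of the 10 libraries was left out. With the replicate block, 1 member was called by DESeq2 in SCG+MEF against SCG (Th), and 1 each by edgeR and DESeq2 in SCG+PSC against SCG+MEF (Ddc). The blocked fits changed no other call of a member. In SCG+PSC against SCG, the log2 fold change of Ddc changed sign to -0.15 with the replicate block and with SCG+PSC replicates 1 to 3, -0.14 with SCG+PSC replicates 1, 2 and 4, -0.17 with SCG+PSC replicate 3 in a block of its own, -0.14 with replicate 4 in block 3 in its place, -0.044 when centred on pan-neuronal genes and -0.15 with block and centring. By edgeR it was -0.19 (-0.15 with the block) and by DESeq2 -0.20 (-0.15 with the block), and Slc6a2 was at -0.076 by edgeR and -0.083 by DESeq2. In SCG+MEF against SCG, Phox2a was at -0.055 when centred, with or without the block, -0.0055 by edgeR and -0.0076 by DESeq2, and Hand2 was at -0.042 when centred, with or without the block. In SCG+PSC against SCG+MEF, quantile normalization gave Dbh 0.0020 and Hand2 0.017, centring gave Dbh 0.012, Slc18a2 0.026, Hand2 0.057 and Npy 0.0085, and centring with the block, chosen after seeing the data, gave Dbh 0.044, Slc18a2 0.012 and Hand2 0.089.

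With 1 library left out, log2 fold changes in SCG+PSC against SCG ran over these ranges: Dbh -0.18 to 0.37, Ddc -0.41 to 0.41, Gata3 -0.47 to 0.23, Hand2 -0.15 to 0.21, Npy -0.14 to 0.70, Phox2a -0.40 to 0.20, Slc18a2 -0.044 to 0.54, Slc6a2 -0.23 to 0.57 and Th -0.23 to 0.65. With 1 library left out, log2 fold changes in SCG+MEF against SCG ran over these ranges: Dbh -0.13 to 0.42, Ddc -0.076 to 0.74, Gata3 -0.20 to 0.50, Hand2 -0.14 to 0.21, Npy -0.087 to 0.75, Phox2a -0.31 to 0.29, Slc18a2 -0.055 to 0.57 and Slc6a2 -0.065 to 0.73. With 1 library left out, log2 fold changes in SCG+PSC against SCG+MEF ran over these ranges: Dbh -0.16 to 0.11, Hand2 -0.13 to 0.12, Npy -0.28 to 0.24, Phox2a -0.24 to 0.12, Slc18a2 -0.21 to 0.27 and Slc6a2 -0.40 to 0.13. Over the same omissions 4 kept their direction, which were Th in SCG+MEF against SCG (0.10 to 0.98) and Th (-0.54 to -0.12), Ddc (-0.58 to -0.053) and Gata3 (-0.44 to -0.11) in SCG+PSC against SCG+MEF, these 3 lowest without SCG+MEF replicate 2 and highest without SCG+PSC replicate 2. In both comparisons with SCG, the lowest value came without SCG replicate 2 and the highest without SCG replicate 3, except that Slc18a2 in SCG+MEF against SCG was lowest without SCG+MEF replicate 3. These fits had no block, so leaving out a library numbered 1 to 3 kept the same-numbered libraries of the other conditions. The cause of these changes was not tested.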
